A study of Mus musculus with 12 samples.

Results

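The pentose phosphate pathway genes described here are the 10 genes G6pdx, Pgls, Pgd, H6pd, Rpia, Rpe, Tkt, Taldo1, Shpk and Rbks, picked by symbol from the 24982 gene symbols in the data. They were measured by RNA sequencing of B lymphocytes taken from the spleens of mice aged 6 weeks, in 3 groups of 4 libraries. The WT group came from wild-type C57BL/J6 mice. The Eμ-Myc group came from mice with the Eμ-Myc transgene, in which the immunoglobulin heavy chain enhancer drives Myc in B lineage cells. The third group, Eμ-Myc; PRPS2 KO, carries the same transgene and lacks PRPS2, 1 of the enzymes that make phosphoribosyl pyrophosphate (PRPP); it is written as KO hereafter. The labels call the libraries biological replicates and do not say whether each came from 1 animal. A knockout without the transgene was not analysed here, so KO differs from WT by the transgene and the knockout together. The labels give neither how the knockout was made nor whether the B lymphocytes were still premalignant. The study asked which genes Myc deregulates in B cells and whether loss of PRPS2, with its effects on redox balance, touches that programme.

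The pentose phosphate pathway branches from glycolysis at glucose 6-phosphate. Its oxidative arm (glucose 6-phosphate dehydrogenase, lactonase and 6-phosphogluconate dehydrogenase) makes NADPH, which cells spend on reductive synthesis and on keeping glutathione reduced, and yields ribulose 5-phosphate. Its non-oxidative arm (isomerase, epimerase, transketolase and transaldolase) turns ribulose 5-phosphate into ribose 5-phosphate, the sugar that PRPP synthetases such as PRPS2 use, and exchanges carbon units with glycolysis in either direction. H6pd works inside the endoplasmic reticulum, and the kinases Shpk and Rbks phosphorylate sedoheptulose and ribose, which lets these sugars enter the pathway.

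The values are mean coverage per gene, so a level is already taken per length. The annotation behind the lengths is not given in the sources used here, so levels compare only roughly between genes. Part of the Pgls level may belong to Fam129c, which shares 776 exon bases with it on the same strand. They were scaled by a method that assumes that most genes are alike between libraries. That assumption was not tested, and 54.8% of the genes tested were called between Eμ-Myc and WT. A value called scaled coverage below is on that scale over all 12 libraries. Prps2 coverage checked the labels: it lay between 100.4 and 139.0 in WT, 196.7 and 297.2 in Eμ-Myc, and 16.1 and 17.6 in KO. Myc lay between 230.3 and 342.8 in WT, 1545 and 2295 in Eμ-Myc and 1060 and 3374 in KO. Of the 10 B cell genes, Cd79b highest, all reached a coverage of 1 in every WT and Eμ-Myc library and 9 did in every KO library. Their summed coverage was 8370 to 16160 in WT, 8073 to 9884 in Eμ-Myc and 7404 to 8263 in KO. In KO libraries 3 and 4 the B cell genes Cr2 (0.114 and 0.342) and Fcer2a (3.77 and 2.74) were near 0, while KO libraries 1 and 2 had 63.7 and 58.7 for Cr2. For both genes of mature B cells every Eμ-Myc library was also below every WT library: Cr2 lay between 79.7 and 187.2 in WT and 15.6 and 42.1 in Eμ-Myc, and Fcer2a between 1745 and 3219 and between 278.7 and 630.7. Of the 10 B cell genes, 3 were called lower in Eμ-Myc against WT (23.1% of all genes).

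Libraries within a group were not alike in markers of other cells, and these values belong beside every result here. The sum over 12 myeloid genes (neutrophil and macrophage genes, S100a9 highest) was 28020, 8711, 9027 and 14930 in WT libraries 1 to 4, 10560, 17490, 7090 and 6182 in Eμ-Myc, and 16180, 11590, 3199 and 1436 in KO; all 12 genes reached a coverage of 1 in every library. The sum over 11 T cell genes was 809 to 4375 in WT, 186.5 to 246.3 in Eμ-Myc and 79.7 to 1007 in KO, and over 9 NK cell genes 372.8 to 1556, 102.8 to 267.7 and 25.3 to 628.1. Plasma cell genes (8) summed to 738.8 to 1131 in WT, 1267 to 1632 in Eμ-Myc and 1019 to 1285 in KO. Erythroid genes (11) reached 1396 in WT, 849.6 in Eμ-Myc and 212.4 in KO at most, and platelet genes (6) 404.4, 146.9 and 136.3. WT library 1 and the split of KO libraries 1 and 2 from 3 and 4 both touch the pathway genes. Calls of pathway genes against WT that rest on WT library 1 are therefore given with and without it. Other results are given without WT library 1 only where stated, and the distances between gene patterns were not recomputed without it. A lower share of a cell type and less RNA per cell cannot be told apart in such bulk libraries.

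The promoters of the 10 genes were read from RefSeq windows (GRCm38.p6, the mm10 build, 250 bases before to 50 after each start), with 11 windows for the 10 genes because Pgd has 2. The letters CACGTG, the E-box that Myc and Max bind, were found on either strand in 0 of the 11 windows, against 7.15% of all 32851 windows. The GC box GGGCGG, to which Sp1-type factors bind, was in 9 of the 11 windows and in every one of the genes but H6pd, against 35.7% of all windows. The windows of H6pd and Shpk and 1 of the 2 Pgd windows start inside the annotated gene. The H6pd window has a GC content of 39.3%, while the other windows have 51.3% to 67.3% and the median of all windows is 52.7%. The part of GC content in the count of GC boxes was not tested. TGACNNNGC, the core of the antioxidant response element bound by Nrf2, was in a window of G6pdx, Rbks and Pgd, against 12.4% of all windows. A match is a description of letters, and a missing match says only that these letters are not in the window. The 4 stretches show 3 genes that rose most in Eμ-Myc (Pgls, Tkt, Rpia), with the GC box in capitals on whichever strand it was found, and G6pdx, with the antioxidant element core in capitals. Each is written 5′ to 3′ on the gene's strand. Positions count back from the start site, and the last 2 GC boxes of Tkt share 1 base.
Pgls, chr8:71591934-71592173, plus strand, bases -250 to -11: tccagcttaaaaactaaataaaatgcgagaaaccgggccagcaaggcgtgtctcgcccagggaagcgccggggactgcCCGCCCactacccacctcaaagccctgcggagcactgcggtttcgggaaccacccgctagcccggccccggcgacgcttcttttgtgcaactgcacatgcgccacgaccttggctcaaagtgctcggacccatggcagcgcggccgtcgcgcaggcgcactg
Rpia, chr6:70792176-70792205, minus strand, bases -30 to -1: ggtttccggaggagttgggggtgGGGCGGc
Tkt, chr14:30549101-30549130, plus strand, bases -30 to -1: gcgccCCGCCCcacctCCGCCCCGCCCccc
G6pdx, chrX:74428919-74428948, minus strand, bases -68 to -39: gaggcgggtcaGCTCAGTCAaagcacacgc

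Taldo1, transaldolase, had the highest mean level of the 10 genes in WT at 575.1 ± 180.2 (SD, n = 4, as for every mean here), followed by Pgd at 428.7 ± 237.4, Pgls at 328.4 ± 67.7 and Tkt at 253.4 ± 83.5. Rpe (171.1 ± 15.7), G6pdx (132.4 ± 93.6) and Rpia (102.5 ± 18.6) came next. H6pd (30.4 ± 7.49), Rbks (14.9 ± 1.64) and Shpk (6.19 ± 1.26) were lowest. Neighbours in this order overlapped between their lowest and highest WT libraries from Taldo1 down to Tkt and from Rpe down to Rpia, while Tkt (198.0 at its lowest) was above Rpe (191.5 at its highest). Places in this order rest on WT library 1: without it (n = 3) Taldo1 was at 487.4, Pgls at 336.7, Pgd at 310.0 and Tkt at 212.2, and Rpia (103.8) was above G6pdx (85.6). The order at the top changed in Eμ-Myc, where Pgls was first (750.9 ± 158.7), then Tkt (499.6 ± 52.3), Taldo1 (494.0 ± 92.9) and Pgd (429.0 ± 61.6). Tkt and Taldo1 differed by less than their spread, while Pgd was below Tkt in each of the 4 Eμ-Myc libraries. In KO the means of the first 4 had the same order, at 650.9 ± 235.3, 511.8 ± 157.8, 446.6 ± 44.9 and 438.6 ± 40.1. Single KO libraries departed from it. In KO library 1 Taldo1 (513.5) was above Pgls (437.2), Pgd (435.2) and Tkt (354.1). In KO library 2 Taldo1 (425.3) was above Tkt (398.1). In KO libraries 3 and 4 Pgd (476.8 and 458.2) was above Taldo1 (430.6 and 417.1). All 10 genes passed the filter on low values in each comparison.

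**Figure D1:**
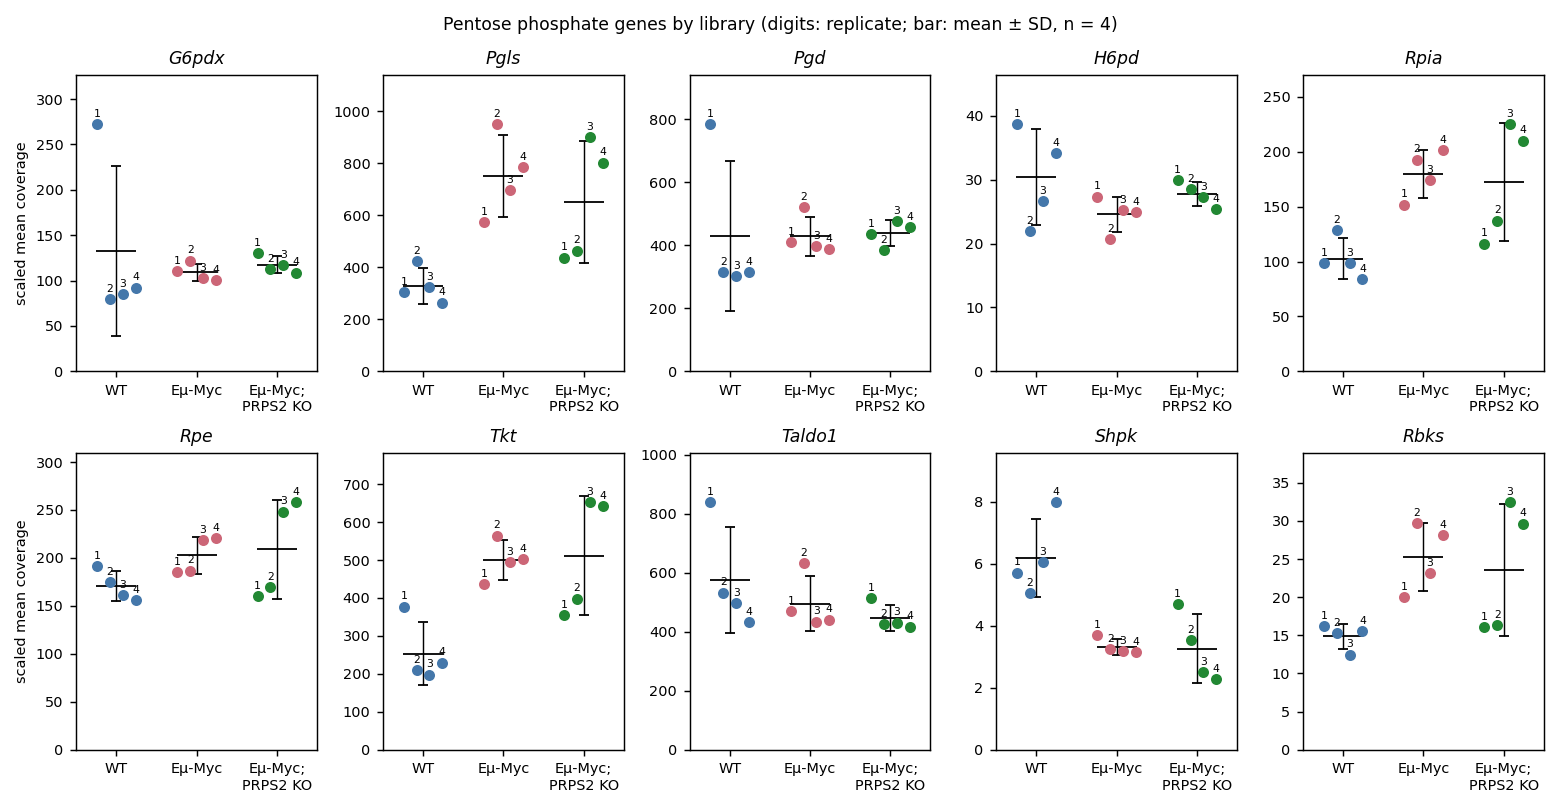
Scaled mean coverage of the 10 genes (y axis, from 0, a scale for each panel) in the 12 libraries, by group; digits are replicate numbers and the black bars are mean ± SD over 4 libraries. WT library 1 stands far above the other WT libraries for G6pdx (272.5) and Pgd (784.7), and KO libraries 3 and 4 stand above 1 and 2 for Pgls, Rpia, Rpe, Tkt and Rbks.

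Between Eμ-Myc and WT, 6 of the 10 pathway genes changed, 5 higher in Eμ-Myc (Pgls, Tkt, Rpia, Rbks and Rpe) and 1 lower (Shpk). The comparison changed 54.8% of the 12723 genes tested (limma, Benjamini-Hochberg adjusted p under 0.05), 31.8% higher and 23.1% lower, so the share of pathway genes called is close to that of genes at large. On the scale of the 8 libraries fitted, the 2 groups did not overlap for the same 6 genes, against 51.4% of all genes (29.9% with Eμ-Myc higher and 21.5% lower). The median log2 fold change was 0.227 over the 10 genes and 0.024 over all genes. Scaling by total coverage instead lowered the median of all genes by 0.209 and the share of called genes that were higher from 57.9% to 41.9%; Pgls, Tkt, Rpia and Rbks stayed higher and Shpk lower under it, and Rpe lost its call. All 11 T cell genes and all 9 NK cell genes measured were lower in Eμ-Myc in the same fit (median log2 fold changes -2.96 and -2.06), and 0 of the 12 myeloid genes were called (median -0.368). The part of these cells in the pathway genes' changes was not tested.

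Pgls, the lactonase of the second oxidative step, had scaled coverage of 303.4, 423.2, 322.4 and 264.4 in WT libraries 1 to 4 and 572.5, 950.5, 697.3 and 783.4 in Eμ-Myc. Each Eμ-Myc library was above each WT library, and WT library 1 was in the middle of its group. The log2 fold change was 1.23 (SE 0.177), a 2.35-fold difference on the log2(coverage + 0.5) scale used throughout, with adjusted p = 0.000352 by limma. Pgls is the only gene of the oxidative arm called with all 8 libraries in the fit.

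G6pdx, the dehydrogenase that commits glucose 6-phosphate to the pathway, had 272.5, 79.8, 85.0 and 92.2 in WT and 110.4, 122.0, 102.8 and 100.9 in Eμ-Myc. WT library 1 was above every other library of the series and the other WT libraries were below all 4 Eμ-Myc libraries. The log2 fold change was -0.03 with a 95% interval of -0.84 to 0.78 (adjusted p = 0.951 by limma), and without WT library 1 it was 0.35 (SE 0.115, adjusted p = 0.0326 by limma). WT library 1 was at 3.18 times the mean of the other WT libraries (85.6 ± 6.25, n = 3).

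Pgd, the second NADPH-making dehydrogenase, showed the same layout, with 784.7, 313.9, 301.4 and 314.7 in WT and 410.4, 520.2, 398.5 and 386.8 in Eμ-Myc. The 3 lower WT libraries lay close together and below all Eμ-Myc libraries. The log2 fold change was 0.17 (adjusted p = 0.650 by limma) with WT library 1 and 0.46 (SE 0.131, adjusted p = 0.0179 by limma) without it. H6pd, which carries out the first oxidative reactions in the endoplasmic reticulum, ranged from 21.9 to 38.7 in WT and from 20.7 to 27.3 in Eμ-Myc, and its difference of -0.23 did not pass the test (adjusted p = 0.310 by limma).

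Leaving out WT library 1 raised the count of called genes from 6 to 8 of 10 (7 higher and 1 lower), with 51.5% of 12556 genes called in that fit, 29.3% higher and 22.2% lower. The median log2 fold change of the 10 genes became 0.404, against 0.006 over all genes. In that fit 2 of the 12 myeloid genes and 2 of the 11 erythroid genes were called higher in Eμ-Myc. WT library 1 had the highest myeloid sum of the 12 libraries, 28020, and G6pdx was highest and lowest within each group in the library with the highest and lowest myeloid sum: WT 1 and 2, Eμ-Myc 2 and 4, KO 1 and 4. Taldo1 was also highest in WT 1, Eμ-Myc 2 and KO 1, but lowest in WT 4 and Eμ-Myc 3, where the myeloid sum was not lowest. Pgd was highest in WT 1 and Eμ-Myc 2 but in KO 3, where the myeloid sum was 3199, and lowest in WT 3, Eμ-Myc 4 and KO 2. The part of myeloid RNA in these genes' levels was not tested.

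**Figure D2:**
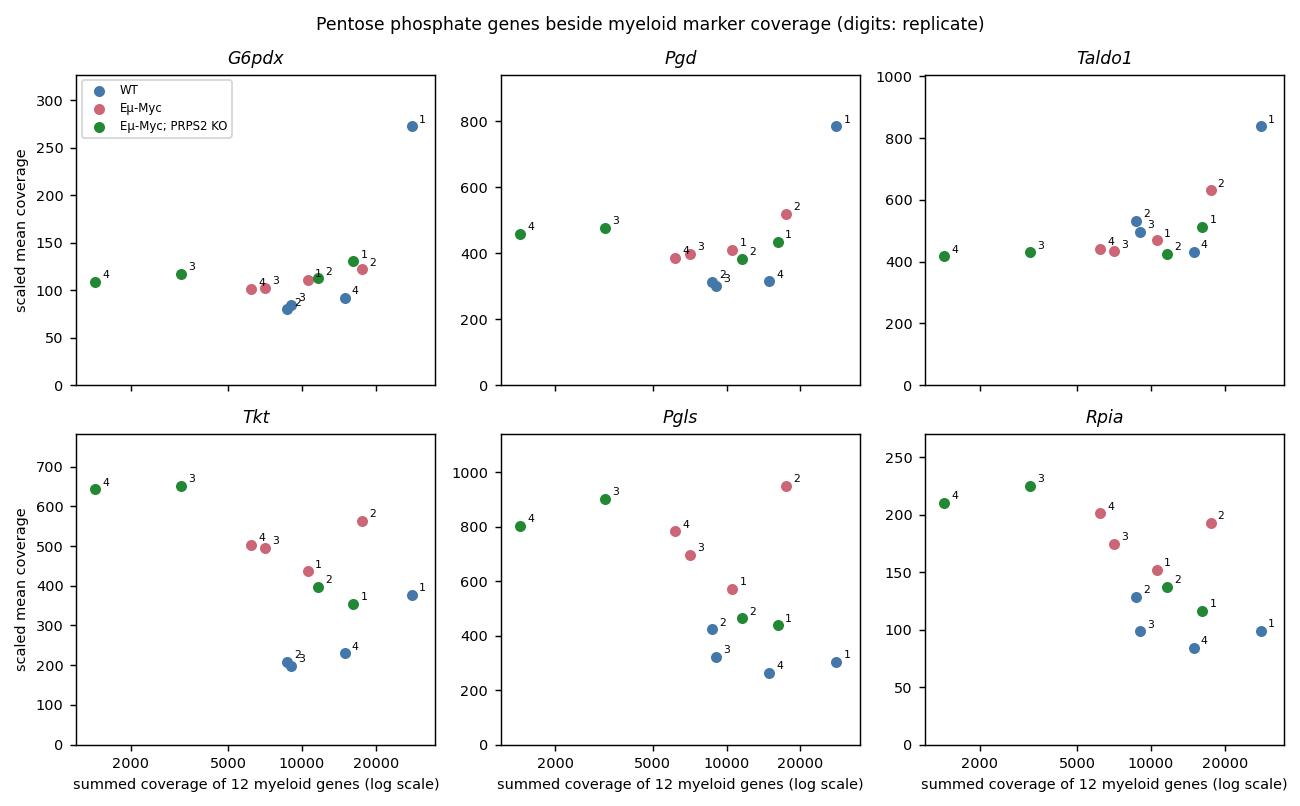
Scaled mean coverage (y axis, from 0) of 6 pathway genes against the summed coverage of 12 myeloid genes (x axis, log scale) in each of the 12 libraries, coloured by group; digits are replicate numbers. WT library 1 lies at the far right and at the top for G6pdx, Pgd and Taldo1, but is in the range of the other WT libraries for Pgls and Rpia.

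The largest difference in the non-oxidative arm was in Tkt, transketolase, which moves carbon units between sugar phosphates. Its coverage was 377.0, 209.0, 198.0 and 229.6 in WT and 436.4, 564.2, 495.4 and 502.6 in Eμ-Myc. All Eμ-Myc libraries were above all WT libraries, although WT library 1 was again highest in its group, at 1.78 times the mean of the others. The log2 fold change was 1.07 (SE 0.194, 2.10-fold, adjusted p = 0.0014 by limma), and 1.23 (adjusted p = 7.71e-05 by limma) without WT library 1.

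Taldo1, the transaldolase that shares substrates with transketolase, did not pass the test. Its coverage was 838.1, 532.3, 497.5 and 432.3 in WT and 469.5, 631.4, 433.9 and 440.9 in Eμ-Myc, and the groups overlapped. The log2 fold change was -0.15 (95% interval -0.61 to 0.32, adjusted p = 0.570 by limma), and 0.01 (interval -0.35 to 0.37) without WT library 1. The ratio of Tkt to Taldo1 coverage, a level against a level, was 0.393 to 0.531 in WT and 0.893 to 1.14 in Eμ-Myc, so every Eμ-Myc library had a higher ratio than any WT library, WT library 1 included.

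Rpia, the isomerase that yields ribose 5-phosphate, had 98.7, 128.5, 98.6 and 84.2 in WT and 151.8, 192.8, 174.4 and 201.1 in Eμ-Myc. The groups did not overlap, and the log2 fold change was 0.86 (SE 0.138, 1.82-fold, adjusted p = 0.000664 by limma). WT library 1 was not apart from its group here. Rpe, the epimerase that makes xylulose 5-phosphate, had 191.5, 175.1, 161.5 and 156.3 in WT and 184.8, 186.7, 218.5 and 220.8 in Eμ-Myc. WT library 1 was above the 2 lowest Eμ-Myc libraries on the 12-library scale, while the groups did not overlap on the scale of the 8 libraries fitted. Its log2 fold change was 0.29 (SE 0.103, adjusted p = 0.0390 by limma), and the call was lost under 5 other settings and when any 1 of 6 of the 8 libraries was left out.

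The sugar kinases moved in opposite directions. Rbks, ribokinase, had 16.2, 15.3, 12.5 and 15.5 in WT and 20.0, 29.8, 23.1 and 28.1 in Eμ-Myc, with no overlap. Its log2 fold change was 0.78 (SE 0.153, adjusted p = 0.00216 by limma). Shpk, sedoheptulokinase, had 5.7, 5.0, 6.0 and 8.0 in WT and 3.7, 3.2, 3.2 and 3.1 in Eμ-Myc, again with no overlap. It fell by 0.76 on the log2 scale (SE 0.186, adjusted p = 0.00718 by limma). Shpk is the lowest of the 10 genes, and WT library 4, with the most T cell coverage (4375), had its highest value; the part of T cell RNA was not tested.

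**Figure D3:**
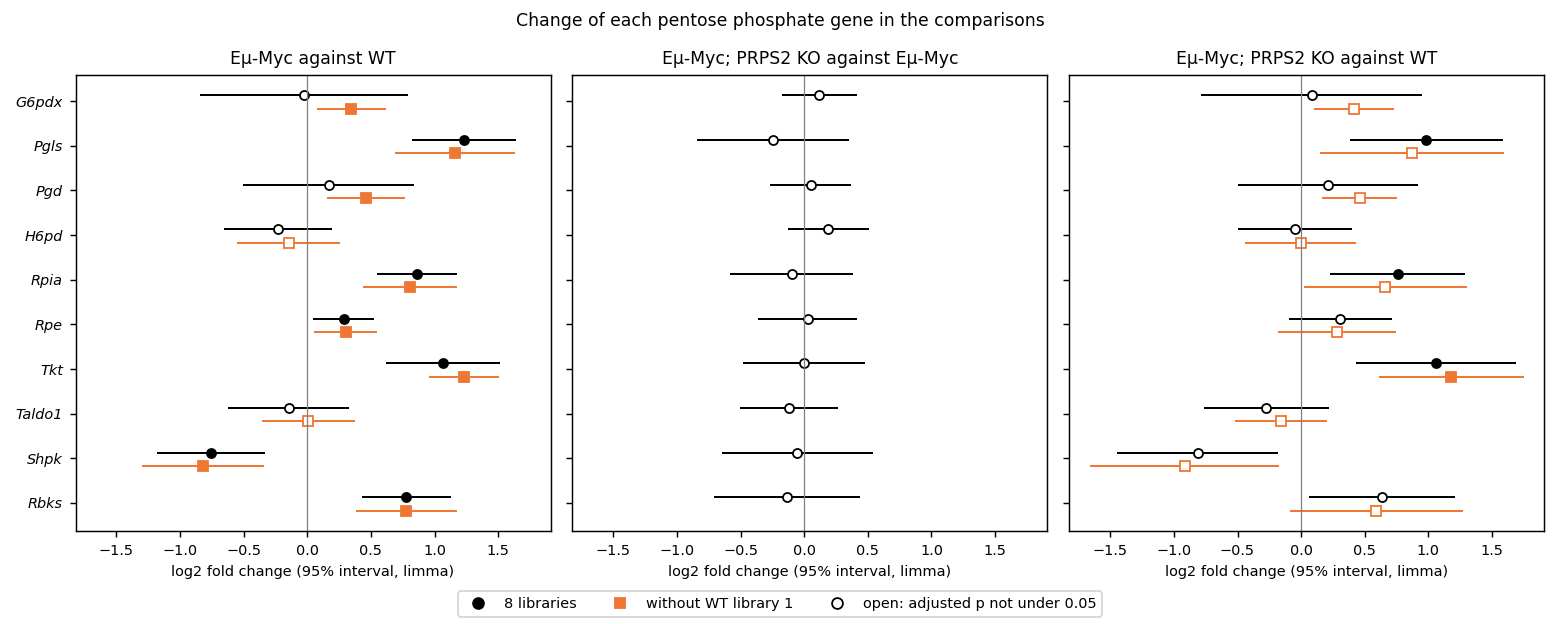
Log2 fold change (x axis) of each gene with its 95% interval from limma in 3 comparisons, with all 8 libraries (black circles) and without WT library 1 (orange squares, where WT enters); filled symbols passed an adjusted p of 0.05. Pgls, Tkt and Rpia lie to the right of 0 in both comparisons with WT, and G6pdx and Pgd pass in Eμ-Myc against WT only without WT library 1.

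Between KO and Eμ-Myc, groups that differ by loss of PRPS2, 0 of the 10 pathway genes were called by limma, and 0 had an unadjusted p under 0.05. In this comparison 1 of 12486 genes (0.00801%) was called, Prps2 itself (log2 fold change -3.79, SE 0.13, adjusted p = 1.58e-05 by limma). For 0 of the 10 pathway genes were the 2 groups free of overlap, against 1.53% of all genes. The adjusted p of every pathway gene was 1.0, which does not show that the levels are alike, and the intervals say what these 8 libraries leave possible. For G6pdx the difference was 0.12 (95% interval -0.17 to 0.40), for Pgd 0.05 (-0.26 to 0.36) and for H6pd 0.19 (-0.12 to 0.50), so a change as large as 1 log2 unit lies outside the interval of each. For Tkt it was 0.00 (-0.47 to 0.47) and for Taldo1 -0.12 (-0.50 to 0.26). The intervals were widest for Pgls (-0.24, from -0.83 to 0.35), Shpk (-0.05, from -0.64 to 0.53) and Rbks (-0.14, from -0.71 to 0.43). Library quality weights of limma give libraries that fit poorly less influence. With them 6 pathway genes (Tkt, Rpe, Pgd, Rpia and Rbks higher, Shpk lower) and 7461 of the 12486 genes were called instead. The weights were estimated from the same 8 libraries, and which libraries lost influence is not given here. These calls therefore cannot be read as an effect of PRPS2 loss. Blocking on the replicate number gave 0 pathway genes and 1 gene in all.

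The KO libraries fell apart in a way the labels do not explain. Pgls was 437.2 and 463.7 in KO libraries 1 and 2 and 901.1 and 801.8 in libraries 3 and 4, against 572.5 to 950.5 in Eμ-Myc. Tkt was 354.1 and 398.1, then 652.3 and 642.7, against 436.4 to 564.2 in Eμ-Myc. Libraries 1 and 2 were thus below all Eμ-Myc libraries for Tkt and libraries 3 and 4 above all of them. Rpia (116.4, 137.2, 225.2 and 210.1), Rpe (160.0, 169.4, 248.2 and 258.0) and Rbks (16.1, 16.3, 32.5 and 29.7) were likewise lower in libraries 1 and 2 than in 3 and 4, and Shpk was higher (4.7, 3.5, 2.5 and 2.3). G6pdx (130.5, 112.7, 117.2 and 108.8), Pgd (435.2, 384.1, 476.8 and 458.2), H6pd (29.9, 28.5, 27.3 and 25.3) and Taldo1 (513.5, 425.3, 430.6 and 417.1) differed less between these pairs of libraries, although Pgd was lower and H6pd higher in both of 1 and 2 than in both of 3 and 4. Myc coverage was 1060 and 1630 in KO libraries 1 and 2 and 3106 and 3374 in 3 and 4, and the myeloid and T cell sums were lowest in 3 and 4; the part of these in the gap was not tested. No label gives a batch for these libraries.

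Between KO and WT, 3 of the 10 pathway genes were called, all higher in KO: Tkt, Pgls and Rpia. Of all 12698 genes, 29.4% were called, 20.6% higher and 8.87% lower, so the share of pathway genes called is again near that of all genes. The median log2 fold change was 0.259 over the 10 genes and 0.012 over all, and without WT library 1 it was 0.438 and -0.056. Scaling by total coverage lowered the median of all genes by 0.177 and the called genes that were higher from 69.9% to 61.4% (58.4% with median-of-ratios scaling). Both comparisons with WT use the same 4 WT libraries, so their values are not independent of each other.

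The log2 fold changes of KO over WT were 1.06 for Tkt (SE 0.27, adjusted p = 0.0294 by limma), 0.98 for Pgls (SE 0.259, adjusted p = 0.0315) and 0.76 for Rpia (SE 0.229, adjusted p = 0.0423). In the other comparison with WT the same genes had 1.07, 1.23 and 0.86. Rpia lost its call in KO against WT with median-of-ratios scaling (adjusted p = 0.0517 by limma) and without the filter (0.0532). On the scale of the 8 libraries fitted, KO and WT did not overlap for Pgls and Rbks, both higher in KO, and for Shpk, lower in KO, against 37.5% of all genes (23.8% higher and 13.7% lower). KO library 1 overlapped WT for Tkt and Rpia. Shpk (-0.81, adjusted p = 0.0537), Rbks (0.63, adjusted p = 0.0763) and Rpe (0.31, adjusted p = 0.172) did not pass, nor did G6pdx (0.08, adjusted p = 0.862), Pgd (0.21, adjusted p = 0.579), H6pd (-0.05, adjusted p = 0.847) or Taldo1 (-0.27, adjusted p = 0.305). Without WT library 1 the log2 fold changes of G6pdx and Pgd were 0.42 (SE 0.131, adjusted p = 0.0784 by limma) and 0.46 (SE 0.121, adjusted p = 0.0621 by limma); every KO library was then above every WT library for both genes, and neither passed the test. The calls depend on which library is left out, for these genes and for all genes: without WT library 1 only Tkt was called (5.96% of genes, 4.66% higher), without any 1 of WT libraries 2, 3 and 4 or KO libraries 3 and 4 the count was 0 (545 to 1251 of all genes called, against 3736 with every library), without KO library 1 it was 5 (6645 of all genes), and without KO library 2 it was 3 (4129 of all genes). With limma's library quality weights 8 were called, 6 higher and 2 lower, and 10525 of all genes. Blocking on the replicate number, which does not pair these libraries, called 0 pathway genes and 1876 genes in all. The fold changes moved less than the calls: over the 8 fits that leave out 1 library Tkt lay between 0.87 and 1.21, Pgls between 0.74 and 1.14 and Rpia between 0.55 and 0.92.

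The make-up of the pathway's transcripts was also read per library. Taldo1 made up 26.5% to 29.1% of the summed coverage of the 10 genes in WT libraries and 16.4% to 19.7% in Eμ-Myc, with no overlap. Tkt made up 11.0% to 14.1% in WT and 17.5% to 19.3% in Eμ-Myc, and Pgls 10.4% to 22.2% and 24.0% to 29.5%, both without overlap. In KO the ranges were 13.8% to 23.4% for Taldo1, 16.1% to 21.8% for Tkt and 19.9% to 28.9% for Pgls. The 4 oxidative-arm genes together took 43.0% to 47.8% in WT, 47.0% to 50.1% in Eμ-Myc and 46.2% to 48.9% in KO. The overlap with WT comes from WT library 1 (47.8%); WT libraries 2 to 4 had 43.0% to 44.1%, below every Eμ-Myc and KO library. Within this arm only Pgls had a higher mean share in Eμ-Myc than in WT (27.4% against 16.9%). The mean shares of G6pdx (4.04% against 6.03%), Pgd (15.8% against 20.1%) and H6pd (0.922% against 1.53%) were lower. These WT means include WT library 1. The shares are described and were not tested.

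**Figure D4:**
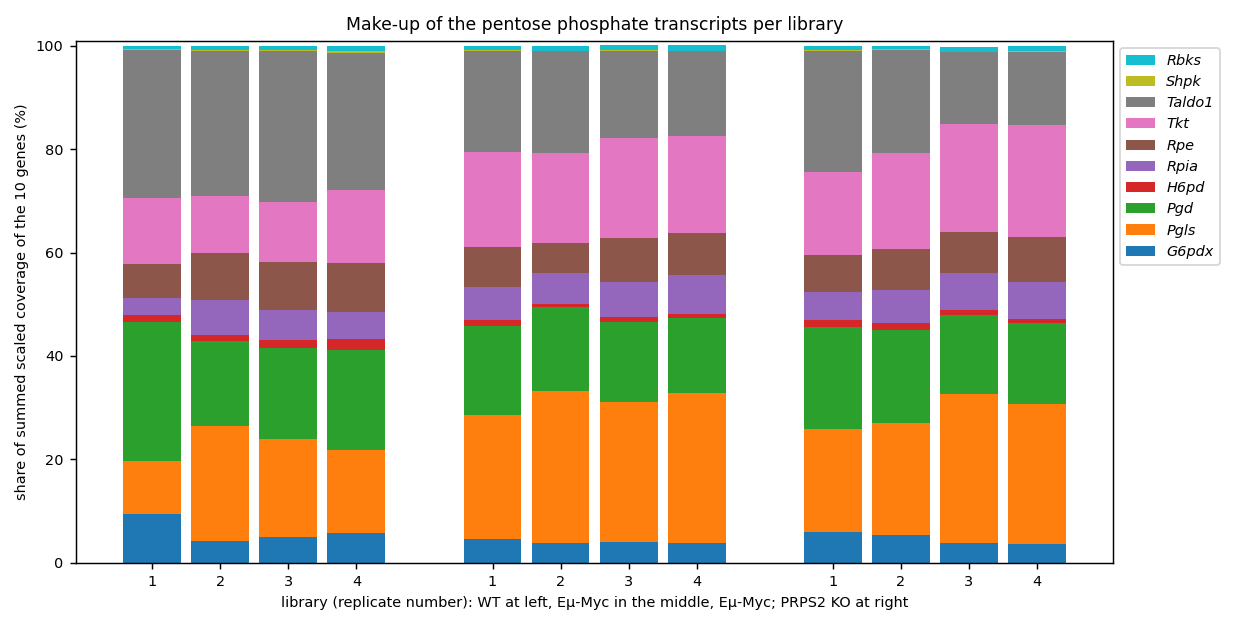
Share of each gene in the summed scaled coverage of the 10 genes (y axis, percent) in each library, with WT at left, Eμ-Myc in the middle and KO at right. Taldo1 takes 26.5% to 29.1% in WT and at most 19.7% in Eμ-Myc, and Tkt and Pgls take more in Eμ-Myc.

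The wider map of the pathway (22 genes that feed it, leave it or compete for its sugars, of which 14 passed the filter) was read the same way. Between Eμ-Myc and WT 7 were higher and 1 lower, with a median log2 fold change of 0.331. Of all genes 31.8% were higher and 23.1% lower in this comparison, with a median of 0.024. Among the PRPP synthetases, which use ribose 5-phosphate, the log2 fold changes were 1.67 for Prps1 (adjusted p = 1.5e-05 by limma), 1.01 for Prps2 (adjusted p = 0.000415) and 0.96 for the Prps1-like gene Prps1l3 (adjusted p = 0.000286). Dera, which splits deoxyribose 5-phosphate, had 1.15 (adjusted p = 0.000166), and Pfkm and Pfkl, subunits of the phosphofructokinase of glycolysis, had 1.18 (adjusted p = 0.0054) and 0.37 (adjusted p = 0.0126). Tigar, a phosphatase that slows glycolysis, had 0.39 (adjusted p = 0.0345), a call lost without WT library 1 (0.28, adjusted p = 0.108). The lower gene was Pgm2 (-0.32, adjusted p = 0.0314). Gpi1 was not called with WT library 1 (0.29, adjusted p = 0.142 by limma) and was called higher without it (0.41, adjusted p = 0.012). The map without WT library 1 again had 7 higher and 1 lower, with a median of 0.321. Of all genes 29.3% were higher and 22.2% lower in that fit, with a median of 0.006. Reads of Prps1 and Prps1l3 may be shared between near-identical copies, so their values are uncertain. Between KO and Eμ-Myc only Prps2 was called among the 14, and limma gave 2 at an unadjusted p under 0.05. Between KO and WT 4 were higher and 2 lower, against 20.6% and 8.87% of all genes: Prps1 (1.71, adjusted p = 0.0178), Prps1l3 (1.01, adjusted p = 0.0273), Pfkm (1.43, adjusted p = 0.0346) and Dera (1.04, adjusted p = 0.0381) were higher, and Prps2 (-2.79, adjusted p = 0.000255) and the gluconate kinase Idnk (-0.42, adjusted p = 0.0457) were lower. Without WT library 1, where 5.96% of all genes were called, the first 4 and Idnk lost their call. Prps2 is the gene knocked out, so its place among the 2 lower genes follows from the design.

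The genes whose pattern over the 12 libraries was most like that of G6pdx, Tkt and Rpia were found by the root mean square difference of log2 coverage centred per gene, among 9635 genes. Alas1, the first enzyme of haem synthesis, was nearest to G6pdx (0.148), followed by Pgd (0.156) and the autophagy gene Atg7 (0.176). Tkt was nearest to the glycolytic enzyme gene Gapdh (0.0726), the nucleosomal protein gene Hmgn2 (0.0859) and the glycolytic enzyme gene Pgk1 (0.098). Rpia was nearest to Ptpa (0.0636), Zfp706 (0.0659) and the mitochondrial ribosomal protein gene Mrps7 (0.073). These distances are descriptions over the same 12 libraries, with their shared cell make-up. They were not recomputed without WT library 1, where G6pdx was at 3.18 and Tkt at 1.78 times the mean of the other WT libraries.

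Some exons overlap other genes in the GENCODE M21 annotation of this build: G6pdx shares 418 bases with Ikbkg and Rpe 558 bases with Kansl1l, both on the opposite strand, and Pgls shares 776 bases with Fam129c on the same strand, so part of the coverage of Pgls could belong to its neighbour. The libraries were directional, but whether strand was used in the counting is not given in the sources used here. The genes lie on chromosome X (G6pdx, bases 74409483 to 74428880), 8 (Pgls, 71592184 to 71596267), 4 (Pgd, 149149991 to 149166705, and H6pd, 149979474 to 150009023), 6 (Rpia, 70765720 to 70792175), 1 (Rpe, 66700797 to 66719805), 14 (Tkt, 30549131 to 30574724), 7 (Taldo1, 141392160 to 141402976), 11 (Shpk, 73199132 to 73224511) and 5 (Rbks, 31624439 to 31697649) of GRCm38.p6.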

How the data were processed

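The deposited values are the authors' signal per gene: mean coverage with 1 decimal, with no read counts, so the depth behind a value is unknown and no count test was used. The submitters' processing notes name mm10, DESeq and R 4.3.3 without saying how they were used; the aligner and annotation are not given in the sources used here. The summed coverage was 1277305.5 to 1885768.9 per library, with 14900 to 16231 genes above 0 of 24982. Per the labels, RNA was polyA-selected and libraries were directional.

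Coverage was scaled by a trimmed mean of log ratios (30% of ratios and 5% of means trimmed), over the 8 libraries of a comparison for tests and over all 12 for levels. Genes that reached a scaled coverage of 1 in 4 or more of the 8 libraries were tested on log2(scaled coverage + 0.5) by limma 3.58.1 (R 4.3.3, trended and robust empirical Bayes), with Benjamini-Hochberg adjustment over all genes tested, two-sided; the script was tested on simulated data. Intervals are 95%. P-values measure the spread between libraries, whose separate origin the labels do not state beyond calling them biological. Same-numbered libraries of KO and Eμ-Myc deviated together (correlations of 0.656, 0.189, 0.245 and 0.612), but no label says that a number marks a pair, and some unlike numbers did so as much (Eμ-Myc 1 with KO 2 at 0.604, 4 with 3 at 0.604, 3 with 4 at 0.301), so libraries 1 and 2 deviated together against 3 and 4. Alternatives were other scalings, pseudocounts, filters, samples in the fit, a replicate block, library weights and leaving out each library.

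The pathway genes and all lists were chosen with earlier results of these data known. Named genes are the 10 pathway genes, Prps2 and Myc, and at most 6 called genes of the wider map per comparison. Tigar, Pgm2, Gpi1 and Aldoc of that map were added after their values were seen. Also named are 3 nearest genes for G6pdx, Tkt and Rpia, and marker genes highest or at 0. Cr2, Fcer2a and the 2 motifs beside the E-box were picked after seeing values or sequences.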

Additional observations from a re-analysis of the deposited data

Results flagged for a closer look

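In 3 of the 30 sets of 4 libraries (10 genes in 3 groups) 1 library stood apart from the other 3 by Dixon's test at the 95% level, which chance gives in about 1 of 20 sets. G6pdx was at 272.5 in WT library 1, with a gap to the next library of 0.935 of the whole range. Pgd was at 784.7 in the same library, with a gap of 0.972. Taldo1 was at 513.5 in KO library 1, with a gap of 0.86. WT library 1 and KO library 1 had the highest myeloid sums of their groups, 28020 and 16180; the part of myeloid RNA was not tested.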

How the results depend on the processing

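Among the recomputed fold changes of single pathway genes, 430 kept their direction and side of the threshold, 33 lost a call, 14 gained one with the same sign and 30 changed sign. Of the last, G6pdx in Eμ-Myc against WT without WT library 1 and Tkt, Rpia and Rbks in KO against Eμ-Myc with library weights also gained a call. In Eμ-Myc against WT, Pgd was -0.049 under total coverage scaling and G6pdx 0.195 with library weights; leaving out each library gave 5 to 8 pathway genes (5770 to 6843 genes in all), G6pdx -0.199 to 0.347 and Taldo1 -0.313 to 0.009. In KO against Eμ-Myc, library weights gave 6 pathway genes and 7461 genes in all, with Tkt 0.346, Pgls 0.179, Rpia 0.219 and Rbks 0.282, and Tkt was 0.017 under median-of-ratios and 0.027 under total coverage scaling. Leaving out each library there gave Pgd -0.013 to 0.143, Rpia -0.227 to 0.058, Rpe -0.068 to 0.131, Tkt -0.118 to 0.144, Taldo1 -0.203 to 0.000, Shpk -0.235 to 0.091 and Rbks -0.295 to 0.005. In KO against WT, G6pdx was -0.098 under total coverage scaling; all 12 libraries in one fit called 5836 genes, and library weights 8 pathway genes and 10525 genes in all. Leaving out each library gave 0 to 5 pathway genes, 545 to 6645 genes in all, G6pdx -0.086 to 0.416 and H6pd -0.187 to 0.018. The cause of these shifts was not tested.

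Blocking on the replicate number, which does not pair the libraries of the comparisons with WT, called 0 pathway genes and 1876 genes in all in KO against WT (Pgls adjusted p = 0.0622, Rpia 0.0775 and Tkt 0.0649 by limma) and 5 pathway genes and 7128 genes in all in Eμ-Myc against WT, where Rpe lost its call (adjusted p = 0.0763). The same-number correlations were 0.241, -0.0996, 0.27 and 0.134 for Eμ-Myc with WT and 0.399, -0.423, 0.136 and -0.061 for KO with WT. The block changed no call in KO against Eμ-Myc. Of the wider map in Eμ-Myc against WT, Pfkl (adjusted p = 0.218 by limma) and Tigar (0.15) lost their call with all 12 libraries. Pgm2 (0.0536) and Tigar (0.0629) lost theirs with the block. In KO against WT, Pfkm (0.0512), Dera (0.0542) and Idnk (0.085) lost their call with the block, and Aldoc was called lower with all 12 libraries (0.0474). Rpe's adjusted p in Eμ-Myc against WT was 0.0386 to 0.144 when 1 library was left out, and 0.0926 under median-of-ratios, 0.559 under total coverage scaling, 0.0547 without the filter and 0.246 with all 12 libraries. In KO against WT, Rpia lost its call with median-of-ratios scaling (0.0517) and without the filter (0.0532), and Shpk gained one with median of ratios (0.0466), a pseudocount of 2 (0.0496) and all 12 libraries (0.0129). Without read numbers, the precision of low values such as those of Shpk cannot be given.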
